A study of Mus musculus with 12 samples.

Results

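The 65 genes described here encode heat shock proteins and chaperonins, and they were picked by name alone from the 12885 gene symbols of an RNA-seq table covering 12 libraries of mouse CD8+ T cells. The symbols taken were those that begin with Hsp followed by a digit or by a, b, d, e or h, the numbered Dnaja, Dnajb and Dnajc genes, Tcp1, and Cct2 through Cct8, with names marked as pseudogenes left out. They fall into 8 subunits of the chaperonin TRiC, 2 genes for the mitochondrial chaperonin and its lid (HSP60 and HSP10), 3 HSP90 genes, 11 HSP70 and HSP110 genes, 37 J-domain genes (4 Dnaja, 9 Dnajb and 24 Dnajc), 2 small heat shock genes and 2 genes for proteins that bind heat shock proteins. All 65 had at least 1 RPKM in at least 2 libraries and so were among the 12726 genes tested. RPKM is the read count scaled to a gene length and to the reads of the library. For 35 of the 65 members that length equalled the combined length of all annotated exons of the gene. Ranks between genes therefore also depend on the lengths used.

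There were 6 groups of 2 libraries each. Ikaros-Zn4-/- cells, called Zn4 below, came from mice homozygous for the Zn4 mutation of Ikaros, a zinc-finger DNA-binding regulator of lymphocyte genes, and WT cells came from wild-type mice. All mice were labelled as female C57Bl/6 animals aged 6 weeks. Naive CD8+ T cells, sorted from spleen as CD62Lhi and CD44lo/-, were lysed directly (0 h) or stimulated for 12 h or 24 h with antibodies to CD3 and CD28 fixed to the plate, which engage the T cell receptor and its costimulator. The mutation is in the whole animal, so every cell of a Zn4 mouse carries it, also before the sort. The labels do not say whether the 2 libraries of a group came from separate animals, so the p-values below measure only the spread between these libraries.

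Chaperones bind unfolded protein and let it fold or refold. HSP70 proteins work in cycles of ATP hydrolysis that J-domain proteins start and nucleotide exchange factors end, HSP90 finishes kinases and receptors, TRiC folds actin and tubulin inside a closed double ring, and HSP60 does the same for imported proteins in mitochondria. Some of these genes are switched on by heat through HSF1 and others by unfolded protein in the endoplasmic reticulum (ER). Naive T cells are small and make little protein, and an activated T cell grows before it first divides.

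Libraries held 24263907 to 33389808 reads, at which depth 3 reads in a transcript of 2 kb equal 0.0449 to 0.0618 RPKM. Cd8a stood at 172 to 323 RPKM and Cd3e at 109 to 252 RPKM in all 12 libraries, and 3 of 12 markers of other blood cells were listed, summing to 0.348 to 6.84 RPKM. RNA of 4 Y-linked genes summed to 43.4 and 21 RPKM in the 2 Zn4 libraries and to 38.9 and 0.00198 RPKM in the 2 WT libraries at 12 h, against at most 0.0209 RPKM in each of the other 8, although all mice were labelled female. Results at 12 h are therefore also given with the Y-linked level as a covariate, and without replicate 1 of both 12 h groups, both chosen as checks of those libraries. The second setting leaves 1 library in each 12 h group, with 21 RPKM of Y-linked RNA in Zn4 cells and 0.00198 RPKM in WT cells. Between genotypes at 12 h it therefore cannot tell Y-linked RNA apart from genotype. The summed RPKM of 17 immediate early genes was 1230 and 1030 in Zn4 cells and 585 and 640 in WT cells at 24 h, and 1070 and 1280 in Zn4 cells and 794 and 827 in WT cells at 0 h. Its part in the results was not tested.

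Short stretches before the starts of a few members carry the letters to which HSF1 and the ER stress factors are known to bind, and they are shown because the genes behind them went different ways after stimulation. Upstream sequence (RefSeq, GRCm38.p6) was available for 53 of the 65 members, in windows of 250 bases before the start and 50 after it. Letters of the ER stress response element, CCAAT, any 9 letters and CCACG on either strand, are capitals in the 250 bases before Hspa5 (chr2:34771840-34772089, plus strand), Hsp90b1 (chr10:86705445-86705694, minus strand) and Dnajc3 (chr14:118937682-118937931, plus strand), written along the strand of the gene.
Hspa5: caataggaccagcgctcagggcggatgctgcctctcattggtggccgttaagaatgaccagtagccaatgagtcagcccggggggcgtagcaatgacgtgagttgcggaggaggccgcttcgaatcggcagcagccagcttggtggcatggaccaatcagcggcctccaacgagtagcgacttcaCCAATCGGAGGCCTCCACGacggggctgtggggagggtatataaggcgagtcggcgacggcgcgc
Hsp90b1: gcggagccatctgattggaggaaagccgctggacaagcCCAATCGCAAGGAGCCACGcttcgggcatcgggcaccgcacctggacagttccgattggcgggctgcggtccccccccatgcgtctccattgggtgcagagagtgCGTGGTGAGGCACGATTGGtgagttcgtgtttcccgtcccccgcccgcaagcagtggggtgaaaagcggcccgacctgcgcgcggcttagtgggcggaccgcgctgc
Dnajc3: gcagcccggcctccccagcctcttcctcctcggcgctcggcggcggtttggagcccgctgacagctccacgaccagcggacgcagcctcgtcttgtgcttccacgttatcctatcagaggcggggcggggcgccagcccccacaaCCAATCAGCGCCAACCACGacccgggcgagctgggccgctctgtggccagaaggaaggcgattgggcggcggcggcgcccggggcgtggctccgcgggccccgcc

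Heat shock elements are capitals in the next 4 stretches: 2 units (GAANNTTC or TTCNNGAA) before Hspa1b (chr17:34959239-34959488, minus strand) and Hspa1a (chr17:34972157-34972406, minus strand), and 3 units (the same with a further GAA or TTC after 2 more letters, the units alternating) before Dnajb6 (chr5:29735648-29735897, plus strand) and between the start of Hspe1 and 1 of the 2 annotated starts of Hspd1 (chr1:55087933-55088147, plus strand), which lies on the other strand. In the stretch between Hspd1 and Hspe1 the run of capitals joins 2 overlapping 3-unit matches. The window of the other Hspd1 start (chr1:55088194-55088493, minus strand) held no heat shock element.
Hspa1b: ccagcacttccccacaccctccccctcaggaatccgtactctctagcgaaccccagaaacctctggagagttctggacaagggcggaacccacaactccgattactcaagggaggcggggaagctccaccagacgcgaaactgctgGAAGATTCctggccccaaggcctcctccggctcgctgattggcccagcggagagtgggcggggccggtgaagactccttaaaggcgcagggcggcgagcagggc
Hspa1a: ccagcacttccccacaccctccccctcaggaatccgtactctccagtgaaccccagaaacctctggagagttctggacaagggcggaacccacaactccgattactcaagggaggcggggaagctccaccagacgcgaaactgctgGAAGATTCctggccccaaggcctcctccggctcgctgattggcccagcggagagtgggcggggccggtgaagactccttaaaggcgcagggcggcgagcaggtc
Dnajb6: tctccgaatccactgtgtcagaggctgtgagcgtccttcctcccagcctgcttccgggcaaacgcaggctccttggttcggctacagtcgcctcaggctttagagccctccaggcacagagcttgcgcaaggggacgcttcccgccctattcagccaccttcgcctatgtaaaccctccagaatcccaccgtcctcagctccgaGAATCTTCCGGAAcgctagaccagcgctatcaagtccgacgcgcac
Hspd1-Hspe1: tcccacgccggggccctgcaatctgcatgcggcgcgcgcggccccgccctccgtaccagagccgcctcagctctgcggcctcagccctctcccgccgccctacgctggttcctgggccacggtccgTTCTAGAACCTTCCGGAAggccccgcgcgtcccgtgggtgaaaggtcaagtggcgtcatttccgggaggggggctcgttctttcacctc

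Over the whole windows of 300 bases, the 3-unit element was in 4 of the 53 members with sequence (7.5%), namely Dnajb6, Hspd1, Hspe1 and Hsph1, against 0.6% of the 8157 genes of the table that had sequence. Every 3-unit match also counts as a 2-unit match, and the 2-unit letters were in 15 members (28.3%), against 13.9% of those genes. The ER element was in 3 members (5.7%), against 0.2%, and the E-box CACGTG was in 7 members (13.2%), against 12.5%. Of the 32851 windows of the reference, 0.6% held the 3-unit letters, 15.1% the 2-unit letters, 0.1% the ER element and 7.2% the E-box. The Hspa1a and Hspa1b windows were identical at 296 of 300 positions. A match is a run of letters and not a binding site.

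After stimulation most of the members rose, and a smaller set that included several heat-inducible genes fell. Reads of the 65 members made up 2.36% and 2.29% of all reads in Zn4 cells and 2.19% and 2.15% in WT cells at 12 h, against 0.922% and 1% in Zn4 cells and 0.936% and 0.829% in WT cells at 0 h. At 24 h the shares were 1.76% and 1.88% in Zn4 cells and 1.84% and 1.79% in WT cells, between the other times. In bulk samples fewer cells expressing a gene and less of its RNA per cell cannot be told apart, and RPKM is relative to the other RNA in the library. All tests were limma fits on log2(RPKM + 1) over all 12726 genes, log2 changes below are on that scale with their standard errors, and a change was called at a Benjamini-Hochberg adjusted p under 0.05.

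In Zn4 cells 59 of the 65 members changed between 0 h and 12 h, where 73% of all genes tested did: 43 rose (66.2%, against 43.5% of all genes) and 16 fell (24.6%, against 29.6%). In WT cells 53 changed, against 70.2% of all genes: 38 rose (58.5%, against 43.1%) and 15 fell (23.1%, against 27%). The median change of the members was 0.66 in Zn4 cells and 0.50 in WT cells, and that of all genes 0.19 and 0.20. In both genotypes 38 members rose and 14 fell, and none rose in one and fell in the other. The matching shares of all genes were not worked out, so these counts only describe the members. Median-ratio scaling, which brought the median of all genes to -0.02 in Zn4 cells and -0.03 in WT cells, left 36 rises and 17 falls in Zn4 cells and 31 rises and 17 falls in WT cells. Of all genes 4515 rose and 4735 fell with this scaling in Zn4 cells, and 4349 and 4554 in WT cells. With the Y-linked level as a covariate 49 members were called in Zn4 cells and 47 in WT cells, and 6979 and 7989 of all genes. Without replicate 1 of both 12 h groups the member medians were 0.60 and 0.55.

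**Figure D1:**
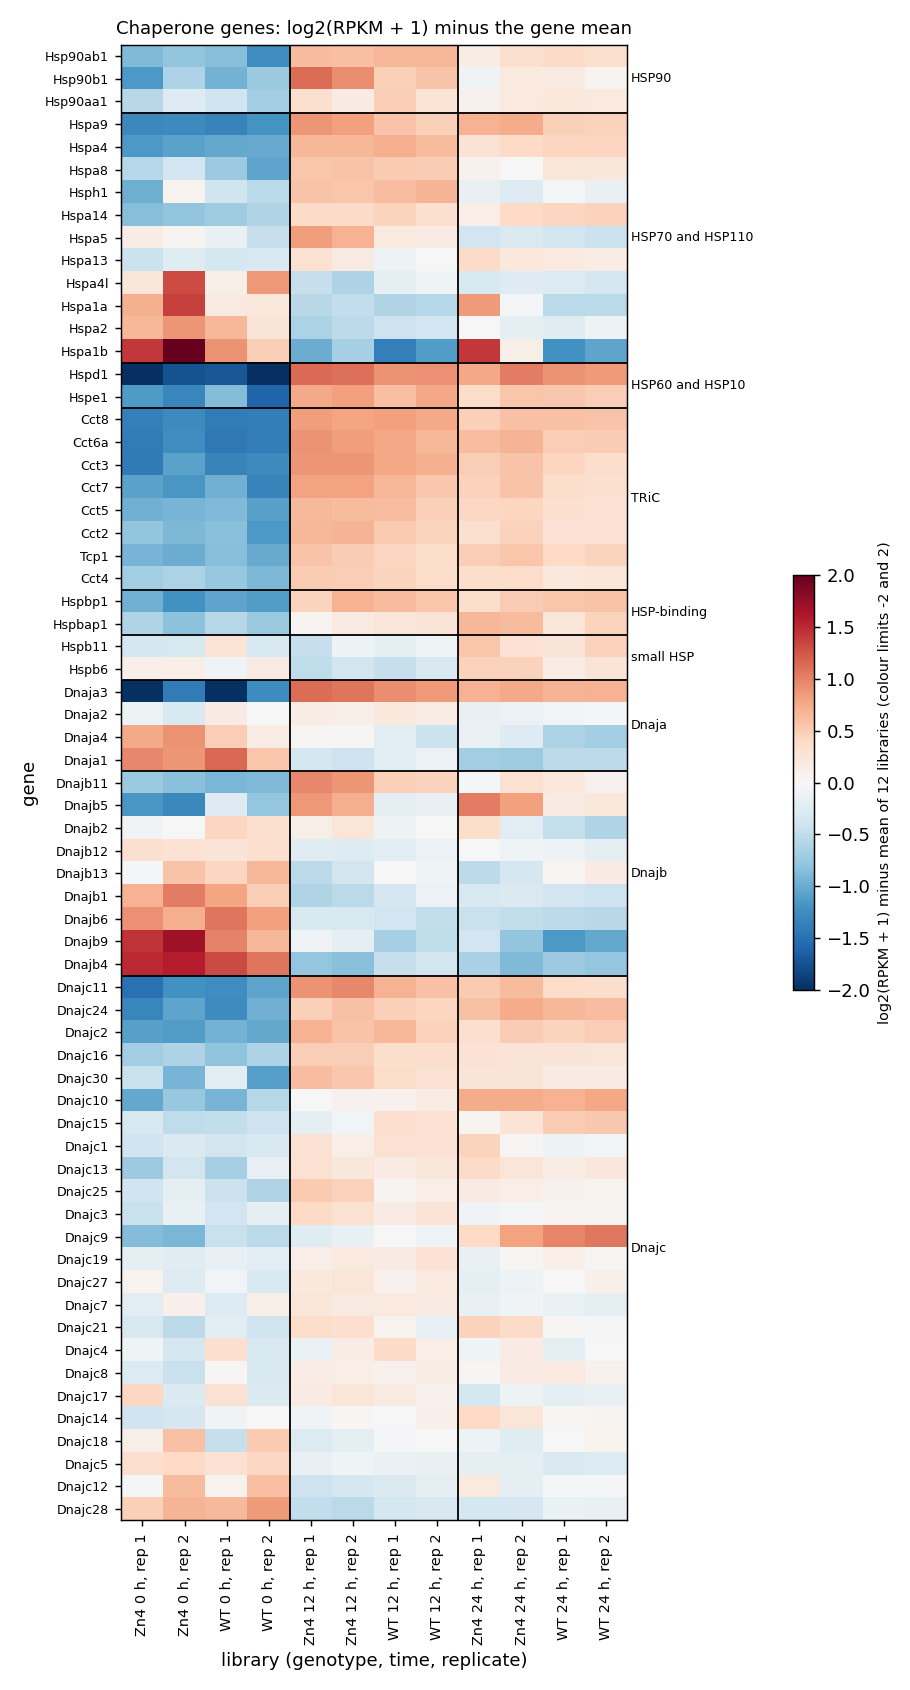
Level of each of the 65 members in each of the 12 libraries, as log2(RPKM + 1) minus the gene's mean over the libraries, with genes grouped by class and Zn4 libraries left of WT libraries within each time. The 8 TRiC rows and the HSP60 and HSP10 rows change together between 0 h and 12 h, while several Dnajb and HSP70 rows go the other way.

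All 8 subunits of TRiC, the cytosolic ring that folds actin and tubulin, rose together. Of all genes 43.5% rose in Zn4 cells and 43.1% in WT cells at 12 h, and 48.7% and 48.3% at 24 h. Summed over the 8 subunits the level was 668 and 673 RPKM in Zn4 cells and 671 and 592 RPKM in WT cells at 0 h. Levels were 2310 and 2280 RPKM in Zn4 cells and 2160 and 2010 RPKM in WT cells at 12 h, and 1880 and 1990 RPKM in Zn4 cells and 1800 and 1790 RPKM in WT cells at 24 h. Changes at 12 h ran between 1.16 and 2.18 in Zn4 cells and between 1.24 and 2.18 in WT cells. All 8 were called at 12 h and at 24 h in both genotypes, also under median-ratio and quantile scaling, with limma-voom on the recovered reads, and without replicate 1 of both 12 h groups.

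The subunits sit in equal number in the ring, and their levels in RPKM differed several-fold, with the same subunit on top throughout. The spread and the order depend on the gene lengths used, worked out as 5030 bases for Tcp1 and 1599 for Cct6a. In replicate 1 of Zn4 cells at 0 h, Tcp1 had 5386 reads and Cct6a 3567, although Cct6a ranked above Tcp1 in RPKM. Cct2, the beta subunit, was highest in all 12 libraries, with 192 and 178 RPKM in Zn4 cells and 185 and 148 RPKM in WT cells at 0 h. Levels were 527 and 530 RPKM in Zn4 cells and 476 and 450 RPKM in WT cells at 12 h, and 413 and 454 RPKM in Zn4 cells and 404 and 406 RPKM in WT cells at 24 h. Tcp1, the alpha subunit, was lowest in 10 libraries, with 40.9 and 39.2 RPKM in Zn4 cells and 43.6 and 38.8 RPKM in WT cells at 0 h, and 118 and 113 RPKM in Zn4 cells and 107 and 102 RPKM in WT cells at 12 h. In the other 2 libraries, replicate 1 of each genotype at 0 h, Cct3 was lowest with 35.4 RPKM in Zn4 cells and 37.2 RPKM in WT cells. Pseudogene rows Tcp1-ps1 and Cct3-ps1 were also listed, so the split of reads between the copies is uncertain for Tcp1 and Cct3. The order below the top changed: Cct6a, the zeta subunit, held rank 3 or 4 at 0 h and rank 2 in all 8 stimulated libraries.

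Cct6a had 85.2 and 94.6 RPKM in Zn4 cells and 82.8 and 85.6 RPKM in WT cells at 0 h, and 420 and 403 RPKM in Zn4 cells and 388 and 357 RPKM in WT cells at 12 h. Its change at 12 h was 2.18 ± 0.08 in Zn4 cells (adjusted p = 2.31e-08) and 2.13 ± 0.08 in WT cells (adjusted p = 3.57e-08). Cct8, the theta subunit, had the largest change in WT cells, 2.18 ± 0.07 (adjusted p = 2.68e-08), with 267 and 255 RPKM at 12 h against 56.1 and 57.2 RPKM at 0 h. Cct2 rose by 1.51 ± 0.11 in Zn4 cells (adjusted p = 1.08e-06) and 1.48 ± 0.11 in WT cells (adjusted p = 1.5e-06), and Tcp1 by 1.5 ± 0.08 in Zn4 cells (adjusted p = 1.29e-07) and 1.33 ± 0.08 in WT cells (adjusted p = 3.52e-07). Stimulated and resting libraries did not overlap for any of these 4 subunits. That is common: 50.3% of all genes in Zn4 cells and 50.9% in WT cells had both 12 h libraries above both 0 h libraries. At 24 h 54.1% and 55.4% did. Between genotypes no subunit was called at 0, 12 or 24 h by limma or by limma-voom, where limma called 5.72%, 13.1% and 19.4% of all genes. At an unadjusted p under 0.05, limma gave 1, 0 and 0 subunits at the 3 times and limma-voom gave 0 at each. The median Zn4 minus WT difference of the subunits was 0.07, 0.14 and 0.12. At 12 h and 24 h both Zn4 libraries lay above both WT libraries for every subunit but Cct8, where 29.7% and 32.4% of all genes did.

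HSP60, the mitochondrial chaperonin, rose most of all. Hspd1, which encodes HSP60, had 20.4 and 26.0 RPKM in Zn4 cells and 26.8 and 21 RPKM in WT cells at 0 h. Levels were 197 and 194 RPKM in Zn4 cells and 169 and 170 RPKM in WT cells at 12 h, and 154 and 183 RPKM in Zn4 cells and 168 and 162 RPKM in WT cells at 24 h. Its rise at 12 h was the largest of any member in both genotypes, 3.03 ± 0.14 in Zn4 cells (adjusted p = 6.95e-08) and 2.79 ± 0.14 in WT cells (adjusted p = 1.49e-07). Hspe1, which encodes the lid HSP10, rose by 2.00 ± 0.20 (adjusted p = 9.96e-06) in Zn4 cells and 1.92 ± 0.20 (adjusted p = 1.51e-05) in WT cells. It had 22.6 and 19.9 RPKM in Zn4 cells and 27.3 and 16.0 RPKM in WT cells at 0 h, and 85.8 and 89.7 RPKM in Zn4 cells and 77.0 and 87.1 RPKM in WT cells at 12 h. The pair did not keep 1 ratio: Hspd1 was 0.902 to 1.32 times Hspe1 in the 4 resting libraries and 1.95 to 2.45 times in the 8 stimulated ones. Processed copies of Hspe1 can take some of its reads: the row Hspe1-ps3 held 0.689 to 4.59 RPKM.

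Most other mitochondrial members rose as Hspd1 did. Of the 10 members on the mitochondrial list, 8 rose and 1 fell at 12 h in each genotype, and 7 rose and 1 fell at 24 h. The 8 rises at 12 h include Dnajc19, whose level is uncertain, as described below. Its call was lost under 4 of 22 alternatives in Zn4 cells and 3 of 22 in WT cells. They also include Dnajc15, whose Zn4 call was lost under 6 of 23. At 12 h 43.5% of all genes rose and 29.6% fell in Zn4 cells, and 43.1% rose and 27% fell in WT cells. At 24 h 48.7% rose and 26% fell in Zn4 cells, and 48.3% rose and 25.6% fell in WT cells. Hspa9, the mitochondrial HSP70 that pulls proteins in, had 252 and 241 RPKM in Zn4 cells and 204 and 191 RPKM in WT cells at 12 h, against 55.6 and 55.7 RPKM in Zn4 cells and 53.4 and 58.9 RPKM in WT cells at 0 h. Its change was 2.13 ± 0.07 in Zn4 cells (adjusted p = 1.95e-08) and 1.80 ± 0.07 in WT cells (adjusted p = 5.66e-08), with no overlap. Both 12 h libraries also lay above both 0 h libraries for 50.3% of all genes in Zn4 cells and 50.9% in WT cells. The pseudogene row Hspa9-ps1 held 15.7 to 76.6 RPKM, so the split of reads between the copies is uncertain. Dnaja3, its J-domain partner, had 37.1 and 35.9 RPKM in Zn4 cells and 32.4 and 30.7 RPKM in WT cells at 12 h, against 3.2 and 5.69 RPKM in Zn4 cells and 3.21 and 6.35 RPKM in WT cells at 0 h. That is a change of 2.82 ± 0.25 in Zn4 cells (adjusted p = 5.36e-06) and 2.55 ± 0.25 in WT cells (adjusted p = 1.28e-05).

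Dnajc11, a J protein of the inner membrane organizing complex, had 23.0 and 24.1 RPKM in Zn4 cells and 20 and 18.3 RPKM in WT cells at 12 h, against 3.57 and 4.6 RPKM in Zn4 cells and 4.44 and 5.21 RPKM in WT cells at 0 h. It rose by 2.28 ± 0.12 in Zn4 cells (adjusted p = 1.27e-07) and by 1.79 ± 0.12 in WT cells (adjusted p = 7.09e-07). Dnajc28 was the 1 mitochondrial member that fell, with 0.15 and 0.112 RPKM in Zn4 cells and 0.266 and 0.311 RPKM in WT cells at 12 h, against 1.25 and 1.6 RPKM in Zn4 cells and 1.53 and 1.93 RPKM in WT cells at 0 h. Dnajc4 was not called at either time in either genotype. Dnajc19, a part of the import motor, stood at 0.723 to 1.48 RPKM while the row Dnajc19-ps held 8.04 to 53.8 RPKM, so its level cannot be taken as that of the gene.

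**Figure D2:**
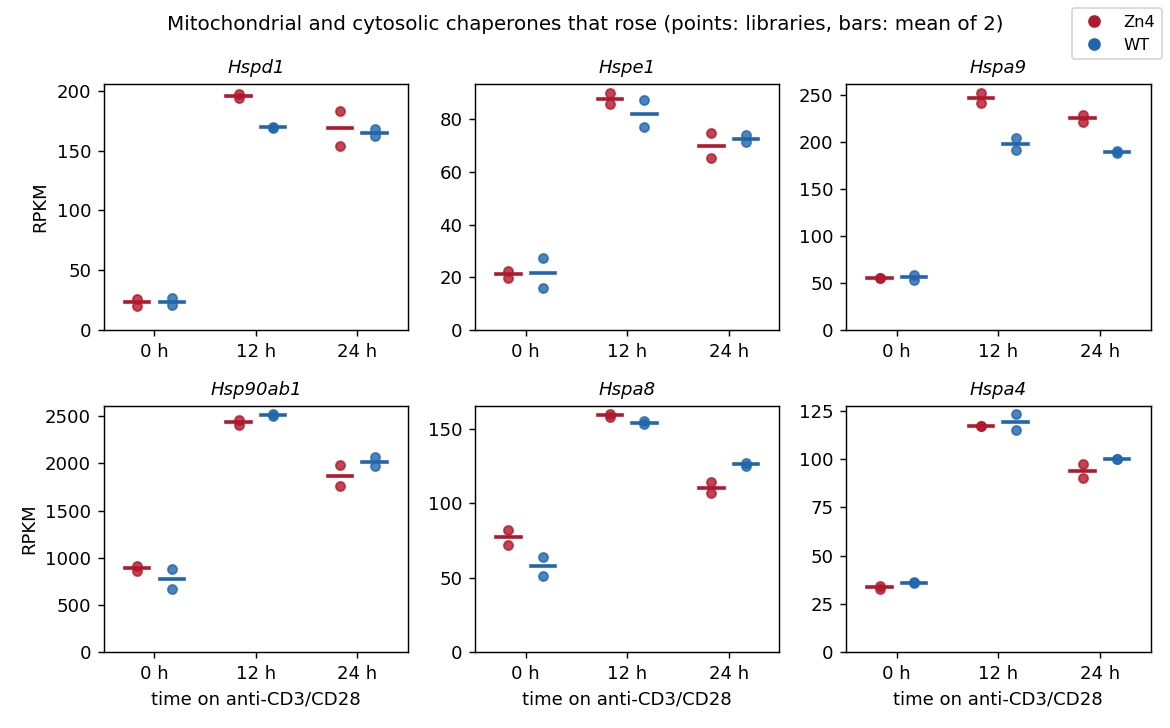
RPKM of Hspd1, Hspe1, Hspa9, Hsp90ab1, Hspa8 and Hspa4 in each library at 0, 12 and 24 h, with Zn4 left of WT at each time; points are libraries, bars are the mean of 2, and each vertical axis starts at 0. Every stimulated library lies above every resting library in all 6 panels, and the 24 h libraries of Hsp90ab1, Hspa8 and Hspa4 lie below the 12 h ones. Within a genotype, both 12 h libraries lay above both 0 h libraries for 50.3% (Zn4) and 50.9% (WT) of all genes. Both 24 h libraries lay below both 12 h libraries for 29.4% (Zn4) and 32.4% (WT).

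Hsp90ab1, the constitutive cytosolic HSP90, was the most abundant member. It had 859 and 916 RPKM in Zn4 cells and 881 and 668 RPKM in WT cells at 0 h. Levels were 2460 and 2410 RPKM in Zn4 cells and 2500 and 2520 RPKM in WT cells at 12 h, and 1760 and 1980 RPKM in Zn4 cells and 2070 and 1970 RPKM in WT cells at 24 h. Stimulated and resting libraries did not overlap. At 12 h 50.3% of all genes in Zn4 cells and 50.9% in WT cells likewise had both libraries above both at 0 h. Hsp90ab1 made up 27.2% to 37.3% of the summed RPKM of all 65 members. Its change at 12 h was 1.45 ± 0.13 in Zn4 cells (adjusted p = 4.29e-06) and 1.71 ± 0.13 in WT cells (adjusted p = 1.71e-06).

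Hsp90aa1, the heat-inducible partner, had 62.7 and 56.1 RPKM in Zn4 cells and 70.9 and 61.0 RPKM in WT cells at 12 h, against 33.7 and 42.0 RPKM in Zn4 cells and 37.7 and 30.6 RPKM in WT cells at 0 h. It rose less, by 0.64 ± 0.13 in Zn4 cells (adjusted p = 0.00168) and 0.93 ± 0.13 in WT cells (adjusted p = 0.00016). The Zn4 call was lost under quantile scaling (0.24, adjusted p = 0.133) and with the Y-linked covariate (0.43, adjusted p = 0.123). Hsp90ab1 was thereby 33.1 to 42.9 times Hsp90aa1 in stimulated libraries and 21.8 to 25.5 times in resting ones.

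Among the cytosolic HSP70 and HSP110 genes the abundant Hspa8 and Hspa4 rose. Hspa8, the HSC70 of every cell, had 158 and 160 RPKM in Zn4 cells and 155 and 153 RPKM in WT cells at 12 h, against 72.1 and 81.9 RPKM in Zn4 cells and 64.1 and 51.2 RPKM in WT cells at 0 h. It rose by 1.04 ± 0.11 in Zn4 cells (adjusted p = 1.4e-05) and 1.41 ± 0.11 in WT cells (adjusted p = 2.01e-06). Hspa4, an HSP110-type exchange factor for HSP70, had 117 RPKM in both Zn4 libraries and 123 and 115 RPKM in WT cells at 12 h, against 32.8 and 34.4 RPKM in Zn4 cells and 35.7 and 36.3 RPKM in WT cells at 0 h. That change was 1.77 ± 0.07 in Zn4 cells (adjusted p = 3.56e-08) and 1.69 ± 0.07 in WT cells (adjusted p = 6.21e-08), with no overlap. Such a rise without overlap was seen for 50.3% of all genes in Zn4 cells and 50.9% in WT cells. Hspa14, the ribosome-associated HSP70, rose by 1.21 ± 0.10 in Zn4 cells and 1.04 ± 0.10 in WT cells. So did Dnajc2, its J-domain partner on the ribosome, by 1.73 ± 0.10 in Zn4 cells and 1.54 ± 0.10 in WT cells, and all 4 adjusted p were between 2.34e-07 and 9.42e-06.

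Other genes of the HSP70 and HSP110 class fell. Hspa2, an HSP70 best known from the testis, had 0.31 and 0.404 RPKM in Zn4 cells and 0.523 and 0.559 RPKM in WT cells at 12 h, against 2.23 and 2.72 RPKM in Zn4 cells and 2.23 and 1.43 RPKM in WT cells at 0 h. It fell by 1.35 ± 0.15 in Zn4 cells (adjusted p = 2.61e-05) and by 0.86 ± 0.15 in WT cells (adjusted p = 0.000647). Hspa4l, a relative of Hspa4, had 4.48 and 3.9 RPKM in Zn4 cells and 5.66 and 6.14 RPKM in WT cells at 12 h, against 7.78 and 17.7 RPKM in Zn4 cells and 7.19 and 12.7 RPKM in WT cells at 0 h. Its change was -1.31 ± 0.32 in Zn4 cells (adjusted p = 0.00434) and -0.62 ± 0.32 in WT cells (adjusted p = 0.11), and the Zn4 call was lost with the Y-linked covariate (-1.24, adjusted p = 0.0899).

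The stress-inducible HSP70 genes fell too. Hspa1b had 0.33 and 0.674 RPKM in Zn4 cells and 0.0294 and 0.224 RPKM in WT cells at 12 h, against 6.03 and 9.94 RPKM in Zn4 cells and 3.94 and 2.71 RPKM in WT cells at 0 h. In reads these were 26 and 52 in Zn4 cells and 2 and 21 in WT cells at 12 h, against 443 and 752 in Zn4 cells and 283 and 186 in WT cells at 0 h. The change was -2.56 ± 0.38 in Zn4 cells (adjusted p = 0.000172) and -1.93 ± 0.38 in WT cells (adjusted p = 0.0012). At these levels it understates the fold and depends on the pseudocount. Hspa1a had 3 and 6 reads in Zn4 cells and 0 and 2 reads in WT cells at 12 h, against 116 and 232 reads in Zn4 cells and 54 and 55 reads in WT cells at 0 h. As the 2 genes are nearly identical, the division of reads between them is uncertain, but both were low in every 12 h library. Hspa1a fell by 1.56 ± 0.27 in Zn4 cells (adjusted p = 0.000517). In WT cells the change was -0.78 ± 0.27 (adjusted p = 0.0268), and that call was lost when any one of the 0 h or 12 h WT libraries was left out (adjusted p = 0.0719 to 0.0899).

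Of the 9 tested members on the list of heat-inducible genes, 5 rose and 4 fell at 12 h in each genotype. Of all genes 43.5% rose and 29.6% fell in Zn4 cells, and 43.1% rose and 27% fell in WT cells. The list also holds Hspa8, given above as the HSC70 of every cell, and its rise is among the 5. Hsph1, an HSP110 with the 3-unit element in its window, was on the rising side with Hspa8, Hsp90aa1, Hspd1 and Hspe1. Hsph1 had 85.1 and 84.2 RPKM in Zn4 cells and 88.7 and 92.8 RPKM in WT cells at 12 h, against 28.6 and 60.1 RPKM in Zn4 cells and 43.3 and 39.0 RPKM in WT cells at 0 h. Its changes were 1.01 ± 0.26 in Zn4 cells (adjusted p = 0.00528) and 1.12 ± 0.26 in WT cells (adjusted p = 0.00306), with the 2 resting Zn4 libraries far apart. The Zn4 call was lost under quantile scaling (0.59, adjusted p = 0.0623) and with the Y-linked covariate (1.07, adjusted p = 0.071).

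On the falling side Dnajb1, the J protein that works with inducible HSP70, joined Hspa1a, Hspa1b and Dnaja1. Dnajb1 had 37.4 and 38.9 RPKM in Zn4 cells and 45.0 and 52.4 RPKM in WT cells at 12 h, against 92.6 and 117 RPKM in Zn4 cells and 99.7 and 80.7 RPKM in WT cells at 0 h. It fell by 1.42 ± 0.13 in Zn4 cells (adjusted p = 6.5e-06) and by 0.87 ± 0.13 in WT cells (adjusted p = 0.000221). Dnaja1, a cytosolic J protein, fell by 1.31 ± 0.16 in Zn4 cells (adjusted p = 4.73e-05) and 1.02 ± 0.16 in WT cells (adjusted p = 0.000297). Of the 15 members with 2 units of the heat shock element, 8 rose and 7 fell at 12 h in each genotype, and of the 4 with 3 units, 3 rose and Dnajb6 fell. The shares of all genes given above apply here too, and the counts are a description.

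The Dnajb class held more falls than any other class at 12 h in Zn4 cells, 6 of its 9 members, where 29.6% of all genes fell. Dnajb4, a cytosolic J protein, had the largest fall next to Hspa1b, with 1.96 and 1.85 RPKM in Zn4 cells and 2.67 and 2.93 RPKM in WT cells at 12 h, against 13.2 and 14.1 RPKM in Zn4 cells and 11.7 and 9.68 RPKM in WT cells at 0 h. It fell by 2.33 ± 0.12 in Zn4 cells (adjusted p = 1.48e-07) and by 1.62 ± 0.12 in WT cells (adjusted p = 1.89e-06). Dnajb6, which keeps polyglutamine proteins from aggregating, fell by 1.14 ± 0.11 in Zn4 cells (adjusted p = 1.13e-05) and 1.39 ± 0.11 in WT cells (adjusted p = 3.31e-06). Its levels were 3.13 and 3.07 RPKM in Zn4 cells and 2.9 and 2.61 RPKM in WT cells at 12 h, against 8.62 and 7.44 RPKM in Zn4 cells and 9.67 and 8.04 RPKM in WT cells at 0 h.

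Most ER members rose by 12 h, and several of the most abundant were lower again at 24 h. Of the 11 tested, 8 rose and 2 fell at 12 h in each genotype. In Zn4 cells 43.5% of all genes rose and 29.6% fell, and in WT cells 43.1% rose and 27% fell. Hspa5, the ER HSP70 known as BiP, had 334 and 315 RPKM in Zn4 cells and 271 and 218 RPKM in WT cells at 0 h. Levels were 538 and 488 RPKM in Zn4 cells and 345 and 340 RPKM in WT cells at 12 h, and 232 and 246 RPKM in Zn4 cells and 233 and 224 RPKM in WT cells at 24 h. It rose by 0.66 ± 0.11 in Zn4 cells (adjusted p = 0.000298) and 0.49 ± 0.11 in WT cells (adjusted p = 0.00211), although the WT rise was not called after median-ratio scaling (0.19, adjusted p = 0.135). Between 12 h and 24 h it fell by 1.10 ± 0.11 in Zn4 cells (adjusted p = 7.16e-05) and by 0.58 ± 0.11 in WT cells (adjusted p = 0.00374). At 24 h it was below the resting level in Zn4 cells, -0.44 ± 0.11 (adjusted p = 0.00374), with both libraries under both at 0 h, as for 31.3% of all genes.

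Hsp90b1, the ER HSP90 known as GRP94, had 54.3 and 78.8 RPKM in Zn4 cells and 62.1 and 72.1 RPKM in WT cells at 0 h. Levels were 264 and 231 RPKM in Zn4 cells and 169 and 181 RPKM in WT cells at 12 h, and 115 and 139 RPKM in Zn4 cells and 135 and 126 RPKM in WT cells at 24 h. It rose by 1.90 ± 0.17 in Zn4 cells (adjusted p = 4.66e-06) and 1.37 ± 0.17 in WT cells (adjusted p = 5.16e-05). Between 12 h and 24 h it changed by -0.96 ± 0.17 in Zn4 cells (adjusted p = 0.00217) and by -0.42 ± 0.17 in WT cells (adjusted p = 0.101). Dnajb11, a J-domain partner of BiP, had 25.8 and 24.1 RPKM in Zn4 cells and 22.8 and 23.3 RPKM in WT cells at 0 h. Levels were 85.8 and 81.8 RPKM in Zn4 cells and 61.5 and 60.6 RPKM in WT cells at 12 h, and 42.5 and 54.1 RPKM in Zn4 cells and 50.9 and 46.7 RPKM in WT cells at 24 h. It fell between 12 h and 24 h by 0.79 ± 0.11 in Zn4 cells (adjusted p = 0.000547). Whether the later fall differed between genotypes was not tested for either gene.

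Other ER members took other courses. Dnajc10, a disulfide reductase that helps clear misfolded ER proteins, rose at both steps, with 4.72 and 5.89 RPKM in Zn4 cells and 5.11 and 6.84 RPKM in WT cells at 0 h. Levels were 10.7 and 11.3 RPKM in Zn4 cells and 11.3 and 11.9 RPKM in WT cells at 12 h, and 18.4 RPKM in both Zn4 libraries and 17.8 and 18.9 RPKM in WT cells at 24 h. The step between 12 h and 24 h was 0.69 ± 0.13 in Zn4 cells (adjusted p = 0.00324) and 0.62 ± 0.13 in WT cells (adjusted p = 0.00784). The WT step was lost without WT 12 h replicate 1 (adjusted p = 0.0615) or WT 24 h replicate 2 (adjusted p = 0.0705). Dnajb9, a BiP co-chaperone that restrains the stress sensor IRE1, fell instead, with 8.56 and 7.89 RPKM in Zn4 cells and 5.34 and 6.07 RPKM in WT cells at 12 h, against 26.4 and 31.7 RPKM in Zn4 cells and 19.1 and 15.0 RPKM in WT cells at 0 h. Its change at 12 h was -1.70 ± 0.16 in Zn4 cells (adjusted p = 8.21e-06) and -1.42 ± 0.16 in WT cells (adjusted p = 3.26e-05). Dnajb12, a J protein of the ER membrane, also fell, with 13.3 and 13.1 RPKM in Zn4 cells and 13.6 and 14.5 RPKM in WT cells at 12 h, against 20.1 and 19.5 RPKM in Zn4 cells and 19.1 and 20.4 RPKM in WT cells at 0 h. Its change was -0.55 ± 0.08 in Zn4 cells (adjusted p = 0.000161) and -0.46 ± 0.08 in WT cells (adjusted p = 0.000598).

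**Figure D3:**
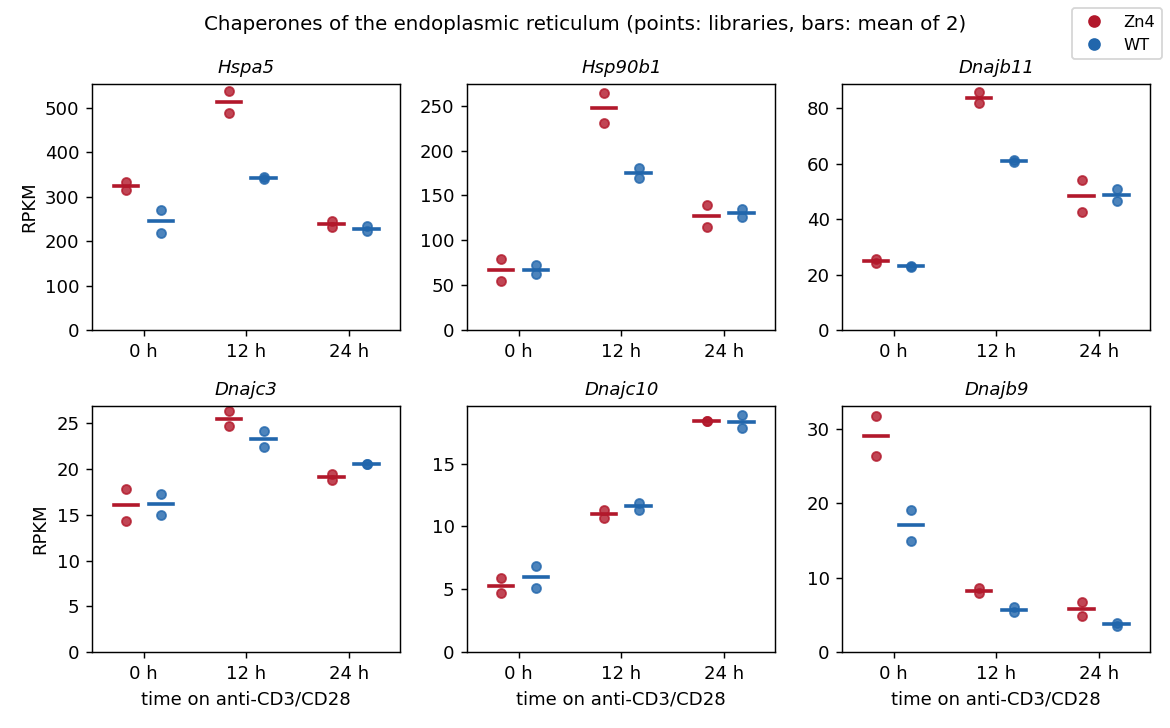
RPKM of the ER members Hspa5, Hsp90b1, Dnajb11, Dnajc3, Dnajc10 and Dnajb9 in each library at 0, 12 and 24 h, with Zn4 left of WT; points are libraries, bars are the mean of 2, and each vertical axis starts at 0. Hspa5, Hsp90b1, Dnajb11 and Dnajc3 are highest at 12 h, Dnajc10 is highest at 24 h and Dnajb9 at 0 h.

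The 24 Dnajc genes, a mixed class of J proteins with varied duties, rose more often than they fell: 17 rose and 3 fell at 12 h in Zn4 cells, where 43.5% of all genes rose and 29.6% fell. In WT cells 14 rose and 2 fell, against 43.1% and 27%. Dnajc15, a mitochondrial J protein and the class member with the highest mean level, had 75.0 and 66.2 RPKM in Zn4 cells and 66.5 and 70.8 RPKM in WT cells at 0 h. Levels were 82.5 and 90.9 RPKM in Zn4 cells and 120 and 115 RPKM in WT cells at 12 h, and 97.8 and 114 RPKM in Zn4 cells and 134 and 138 RPKM in WT cells at 24 h. The WT rise at 12 h was 0.77 ± 0.10 (adjusted p = 6.82e-05). The Zn4 change at 12 h was 0.29 ± 0.10 (adjusted p = 0.0208), and it was 0.01 after median-ratio scaling, -0.12 after quantile scaling, 0.20 (adjusted p = 0.138) without Zn4 0 h replicate 2 and 0.22 (adjusted p = 0.135) without Zn4 12 h replicate 2.

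Dnajc9, a histone chaperone as well as a J protein, rose in steps to 60.1 and 79.9 RPKM in Zn4 cells and 90.3 and 95.6 RPKM in WT cells at 24 h, against 38.1 and 41 RPKM in Zn4 cells and 45.0 and 43.2 RPKM in WT cells at 12 h. Resting levels were 24.4 and 23.6 RPKM in Zn4 cells and 33.0 and 31.0 RPKM in WT cells. Between 12 h and 24 h it rose by 0.79 ± 0.12 in Zn4 cells (adjusted p = 0.00095) and 1.06 ± 0.12 in WT cells (adjusted p = 0.000264), the largest WT rise of any member over that interval. Dnajc5, the cysteine string protein of secretory vesicles, fell by 0.48 ± 0.07 in Zn4 cells and 0.50 ± 0.07 in WT cells at 12 h (adjusted p = 0.000175 and 0.000155), with 27.8 and 28.9 RPKM in Zn4 cells and 28.1 and 27.8 RPKM in WT cells against 39.1 and 40.9 RPKM in Zn4 cells and 38.3 and 41.6 RPKM in WT cells at 0 h.

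The Dnaja, small heat shock and HSP-binding classes hold few genes. Dnaja2, the highest of the Dnaja genes, stood at 65.6 to 94.6 RPKM over the 12 libraries, and its Zn4 change of 0.33 ± 0.09 at 12 h (adjusted p = 0.007) was -0.09 after quantile scaling and was not called without Zn4 0 h replicate 2 (0.23, adjusted p = 0.0585). Hspb6, a small heat shock protein of muscle, stood at 0.557 to 2.06 RPKM, and Hspb11, a subunit of the intraflagellar transport machinery despite its name, at 1.08 to 3.21 RPKM. Hspb6 was lowest at 12 h and rose by 24 h by 0.90 ± 0.12 in Zn4 cells (adjusted p = 0.000466) and 0.59 ± 0.12 in WT cells (adjusted p = 0.00666), and without WT 12 h replicate 1 or WT 24 h replicate 2 the WT adjusted p was 0.0614 or 0.0686. Hspbp1, an exchange factor that takes ADP off HSP70, rose by 1.66 ± 0.11 in Zn4 cells and 1.67 ± 0.11 in WT cells at 12 h, with 71.0 and 84.7 RPKM in Zn4 cells and 80.3 and 76.7 RPKM in WT cells against 26.1 and 21.8 RPKM in Zn4 cells and 24.5 and 23.4 RPKM in WT cells at 0 h (adjusted p = 7.12e-07 and 8.34e-07). Hspbap1, the other HSP-binding member, rose by 0.83 ± 0.12 in Zn4 cells (adjusted p = 0.000169) and 0.91 ± 0.12 in WT cells (adjusted p = 0.000105).

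At 24 h the members again rose more often than they fell, as did all genes. Against 0 h 53 members changed in Zn4 cells, where 74.7% of all genes did: 39 rose (60%, against 48.7% of all genes) and 14 fell (21.5%, against 26%). In WT cells 49 changed, against 73.9% of all genes: 35 rose (53.8%, against 48.3%) and 14 fell (21.5%, against 25.6%). WT shares were thus near those of all genes. The median change of the members was 0.58 in Zn4 cells and 0.50 in WT cells, and that of all genes 0.31 in each. Median-ratio scaling gave 32 rises and 20 falls in Zn4 cells and 29 rises and 19 falls in WT cells. Of all genes 4732 rose and 4719 fell with it in Zn4 cells, and 4674 and 4668 in WT cells. Hspd1 and Dnaja3 again had the largest rises, 2.81 ± 0.14 and 2.46 ± 0.25 in Zn4 cells and 2.74 ± 0.14 and 2.35 ± 0.25 in WT cells (adjusted p between 1.23e-07 and 1.95e-05). Dnajb4, at 2.25 and 1.74 RPKM in Zn4 cells and 2.07 and 1.97 RPKM in WT cells, stayed down, by 2.29 ± 0.12 in Zn4 cells (adjusted p = 1.86e-07) and 1.95 ± 0.12 in WT cells (adjusted p = 4.88e-07).

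Between 12 h and 24 h the members leaned downward. In Zn4 cells 10 rose and 13 fell, where 22.6% of all genes rose and 11% fell, and in WT cells 3 rose and 3 fell, against 17% and 6.94%. The member median was -0.14 in Zn4 cells and -0.15 in WT cells, and that of all genes 0.05 and 0.04. In Zn4 cells 34 members had both 24 h libraries below both 12 h libraries, where 29.4% of all genes did, and 16 had both above, where 41.5% did. In WT cells these numbers were 38, against 32.4%, and 14, against 42.4%, although few of these members passed the test. Median-ratio scaling made falls more common over all genes. It gave 2283 rises and 2060 falls in Zn4 cells, against 2875 and 1398 without it. In WT cells it gave 1707 and 1449, against 2169 and 883. Among the members it gave 7 rises and 24 falls in Zn4 cells and 3 rises and 21 falls in WT cells. The number of calls rested on single 12 h and 24 h libraries: it was 8 without Zn4 12 h replicate 1 in Zn4 cells, and in WT cells 2 without WT 12 h replicate 1 or WT 24 h replicate 2 and 15 without either WT 0 h library. With the Y-linked covariate the calls left were Hspa5 in Zn4 cells (1) and Hspa5 and Dnajc9 in WT cells (2). Of all genes 847 in Zn4 cells and 1511 in WT cells were called with it, against 4273 and 3052 without it. Without replicate 1 of both 12 h groups the member median was -0.14 in each genotype.

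**Figure D4:**
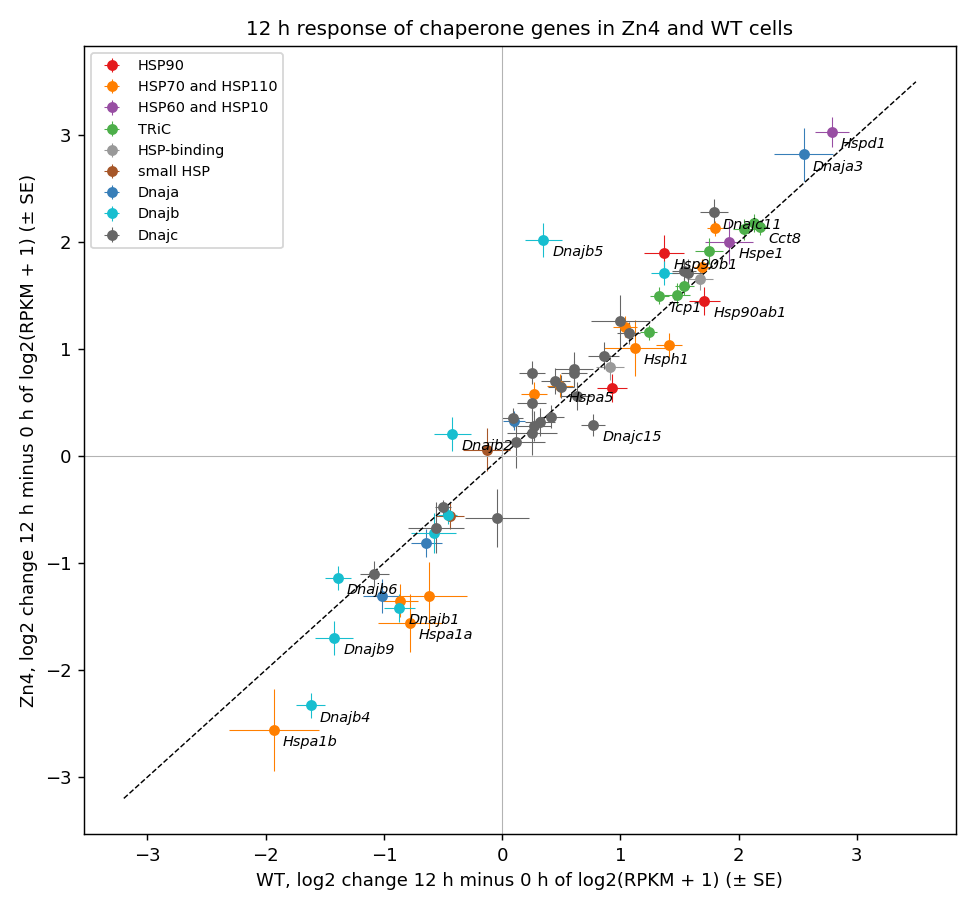
Change of each of the 65 members between 0 h and 12 h on the log2(RPKM + 1) scale in Zn4 cells (vertical axis) against WT cells (horizontal axis), with bars of 1 SE; the dashed line marks equal change. Most points lie near the line, Hspd1 is at the upper right with 3.03 in Zn4 cells and 2.79 in WT cells, and Dnajb5 lies farthest above the line with 2.02 in Zn4 cells and 0.35 in WT cells.

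Few members were called between genotypes. At 0 h 2 members were called between Zn4 and WT cells, where 5.72% of all genes were called: 1 was higher in Zn4 cells (3.76% of all genes) and 1 lower (1.96%). At 12 h 7 were called, against 13.1%: 6 higher (4.85%) and 1 lower (8.28%). At 24 h 9 were called, against 19.4%: 7 higher (9.4%) and 2 lower (9.96%). The response to stimulation differed between genotypes for 2 members at 12 h, where 5.12% of all genes differed (1 larger in Zn4 cells, 1.54% of all genes, and 1 smaller, 3.58%), and for 4 at 24 h, against 8.24% (3 larger, 3.88%, and 1 smaller, 4.35%). The median Zn4 minus WT difference of the members was 0 at 0 h, 0.06 at 12 h and 0.05 at 24 h, and that of all genes was between -0.02 and -0.01. Leaving out one library at a time gave 0 to 7 calls at 0 h, 1 to 8 at 12 h and 0 to 11 at 24 h. The lowest of these came without either WT 24 h library at 0 h, without Zn4 12 h replicate 1 or WT 12 h replicate 2 at 12 h, and without WT 24 h replicate 1 at 24 h. With the Y-linked covariate 1, 2 and 5 members were called at the 3 times. Of all genes 621, 892 and 2221 were called with it, against 728, 1671 and 2464 without it. Without replicate 1 of both 12 h groups the median differences of the members were 0, 0.05 and 0.05.

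More members had Zn4 and WT libraries that did not overlap than were called. At 0 h both Zn4 libraries lay above both WT libraries for 11 members, where they did for 19% of all genes, and below for 9, against 20.8%. At 12 h they lay above for 29, against 29.7%, and below for 15, against 33.5%. At 24 h they lay above for 30, against 32.4%, and below for 15, against 36.3%. Markers of CD8+ T cells also differed between the genotypes after stimulation: 5 of 8 were called lower in Zn4 cells at 12 h and 5 at 24 h, with medians of -0.55 and -0.50, and none was called higher. Of all genes 8.28% were called lower at 12 h and 9.96% at 24 h, and 4.85% and 9.4% were called higher. Cd3e, a part of the T cell receptor complex, had 159 and 167 RPKM in Zn4 cells and 239 and 252 RPKM in WT cells at 12 h, and 109 and 138 RPKM in Zn4 cells and 245 and 239 RPKM in WT cells at 24 h. It differed by -0.59 ± 0.12 (adjusted p = 0.0116) and by -0.97 ± 0.12 (adjusted p = 0.000657). The listed markers of other blood cells summed to 0.348 and 0.683 RPKM in Zn4 cells and 1.63 and 2.36 RPKM in WT cells at 12 h, and to 1.7 and 2.05 RPKM in Zn4 cells and 6.84 and 6.75 RPKM in WT cells at 24 h. The part of these markers in the genotype results was not tested.

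Dnajb5, a cytosolic J protein of the HSP40 family, differed most at 12 h and in its response to stimulation. It had 3.11 and 2.77 RPKM in Zn4 cells and 6.7 and 4.37 RPKM in WT cells at 0 h. Levels were 15.8 and 14.3 RPKM in Zn4 cells and 7.05 and 7.3 RPKM in WT cells at 12 h, and 17.8 and 15.2 RPKM in Zn4 cells and 9.32 and 9.65 RPKM in WT cells at 24 h. Zn4 libraries thus lay below WT libraries at rest and above them at both later times, with no overlap at any time. The difference was -0.71 ± 0.16 at 0 h (adjusted p = 0.0299), 0.97 ± 0.16 at 12 h (adjusted p = 0.00355) and 0.74 ± 0.16 at 24 h (adjusted p = 0.0103). The response to stimulation was larger in Zn4 cells by 1.68 ± 0.22 at 12 h (adjusted p = 0.00383) and by 1.44 ± 0.22 at 24 h (adjusted p = 0.00595), and the second of these kept its call under all 23 alternatives. The 12 h response and the 12 h difference were lost only without replicate 1 of both 12 h groups (1.59, adjusted p = 0.0763, and 0.88, adjusted p = 0.138). The 24 h difference was lost without Zn4 24 h replicate 1 (0.63, adjusted p = 0.0877), WT 24 h replicate 1 (0.71, adjusted p = 0.0739) or WT 24 h replicate 2 (0.76, adjusted p = 0.06). The resting difference was lost without any one library other than WT 0 h replicate 2 or the Zn4 24 h libraries (adjusted p = 0.0505 to 0.144).

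The other resting call was Dnajb9, higher in Zn4 cells by 0.74 ± 0.16 (adjusted p = 0.0287), with 26.4 and 31.7 RPKM in Zn4 cells against 19.1 and 15.0 RPKM in WT cells. It was lost without Zn4 0 h replicate 2 (0.61, adjusted p = 0.163), WT 0 h replicate 2 (0.58, adjusted p = 0.127) or either WT 24 h library (adjusted p = 0.0529 and 0.0531).

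At 12 h, 3 of the 11 ER members tested were higher in Zn4 cells and none was lower, where 4.85% of all genes were higher and 8.28% lower. Hspa5 differed by 0.58 ± 0.11 (adjusted p = 0.00632), with 538 and 488 RPKM in Zn4 cells and 345 and 340 RPKM in WT cells. Dnajb11 differed by 0.45 ± 0.11 (adjusted p = 0.0239) and Dnajc25, a little-studied J protein of the ER, by 0.40 ± 0.11 (adjusted p = 0.0487). Hsp90b1 lay above WT in both Zn4 libraries but missed the threshold, 0.50 ± 0.17 (adjusted p = 0.088). The Hspa5 call was lost without Zn4 12 h replicate 1 (adjusted p = 0.0654) or WT 12 h replicate 2 (adjusted p = 0.0509), and the other 2 were lost without any one 12 h library (adjusted p = 0.0768 to 0.23) and, for Dnajc25, without any one 24 h library (adjusted p = 0.054 to 0.0906). With the Y-linked covariate Hspa5 alone of the 3 was called, and without replicate 1 of both 12 h groups none was. The response to 12 h of stimulation was not called different between genotypes for any of them (adjusted p = 0.632 for Hspa5, 0.266 for Dnajb11 and 0.646 for Dnajc25).

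2 mitochondrial members went opposite ways between genotypes. Hspa9 was higher in Zn4 cells at 12 h, by 0.32 ± 0.07 (adjusted p = 0.0198), and at 24 h, by 0.25 ± 0.07 (adjusted p = 0.0397), with 221 and 229 RPKM in Zn4 cells and 190 and 188 RPKM in WT cells at 24 h. Dnajc15 was lower in Zn4 cells at 12 h, by -0.43 ± 0.10 (adjusted p = 0.0175), and at 24 h, by -0.36 ± 0.10 (adjusted p = 0.0289). For both genes and both times all Zn4 libraries lay on the same side of all WT libraries. The Hspa9 call was lost without any one 12 h library at 12 h (adjusted p = 0.05 to 0.159), and at 24 h without any one library other than the WT 0 h ones (adjusted p = 0.0526 to 0.2). The Dnajc15 call was lost at 12 h without Zn4 12 h replicate 1 or either WT 12 h library (adjusted p = 0.0809 to 0.145), and at 24 h without Zn4 24 h replicate 1 or either WT 24 h library (adjusted p = 0.124 to 0.19). With the Y-linked covariate both 12 h calls were lost (adjusted p = 0.118 for Hspa9 and 0.0711 for Dnajc15), as they were without replicate 1 of both 12 h groups (adjusted p = 0.219 for Hspa9 and 0.371 for Dnajc15).

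Dnajc21, a J protein that takes part in making the large ribosomal subunit, had 14.7 and 14.3 RPKM in Zn4 cells and 11.7 and 9.82 RPKM in WT cells at 12 h, and 15.8 and 14.8 RPKM in Zn4 cells and 11.4 and 10.9 RPKM in WT cells at 24 h. It differed by 0.41 ± 0.11 at 12 h (adjusted p = 0.0417) and 0.42 ± 0.11 at 24 h (adjusted p = 0.0283). The 24 h call was lost without any one 24 h library (adjusted p = 0.0515 to 0.163), and the 12 h call without Zn4 12 h replicate 1 or 2, WT 12 h replicate 2 or any one 24 h library (adjusted p = 0.0505 to 0.281). The 12 h call was also lost with the Y-linked covariate (0.31, adjusted p = 0.205), without replicate 1 of both 12 h groups (0.50, adjusted p = 0.185), under quantile scaling (adjusted p = 0.0578) and with only the libraries of the comparison (adjusted p = 0.0555).

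At 24 h the stress-inducible HSP70 genes were higher in Zn4 cells than in WT cells. Hspa1b had 6.08 and 1.86 RPKM in Zn4 cells, or 436 and 130 reads, and 0.147 and 0.277 RPKM in WT cells, or 10 and 22 reads. Hspa1a had 133 and 36 reads in Zn4 cells and 3 and 4 reads in WT cells. The 2 Zn4 libraries differed several-fold, and both lay above both WT libraries. The difference was 1.89 ± 0.38 for Hspa1b (adjusted p = 0.00761) and 0.95 ± 0.27 for Hspa1a (adjusted p = 0.0369). The Hspa1b call was lost without WT 24 h replicate 1 (1.82, adjusted p = 0.0571). The Hspa1a call was lost without Zn4 24 h replicate 1 (0.51, adjusted p = 0.224), either WT 24 h library (adjusted p = 0.145 and 0.152) or any one 12 h library (adjusted p = 0.0566 and 0.0567).

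Between 12 h and 24 h Hspa1b rose by 1.59 ± 0.38 in Zn4 cells (adjusted p = 0.0102), and without Zn4 12 h replicate 1 the value was 1.43 (adjusted p = 0.075). In WT cells the change was 0.11 ± 0.38 (adjusted p = 0.875). The response at 24 h against 0 h did not pass the test of a difference between genotypes for Hspa1b, 0.86 ± 0.53 (adjusted p = 0.376). Its resting levels of 6.03 and 9.94 RPKM in Zn4 cells also lay above the 3.94 and 2.71 RPKM of WT cells. The summed immediate early level was also higher in both Zn4 libraries than in both WT libraries at 0 h and at 24 h, and 9 of its 17 genes were called higher at 24 h, where 9.4% of all genes were. Its part in the Hspa1a and Hspa1b levels was not tested.

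3 further members were called at 24 h. Dnajb2, a J protein best known in neurons, had 9.56 and 6.17 RPKM in Zn4 cells and 4.99 and 4.47 RPKM in WT cells at 24 h, against 6.89 and 7.32 RPKM in Zn4 cells and 10.2 and 9.44 RPKM in WT cells at 0 h. It differed by 0.61 ± 0.16 (adjusted p = 0.0276) at 24 h, and its response differed by 1.02 ± 0.23 (adjusted p = 0.0263). The difference was lost without Zn4 24 h replicate 1 (0.33, adjusted p = 0.147) or either WT 24 h library (adjusted p = 0.0912 and 0.166), and the response without either Zn4 0 h library, WT 0 h replicate 1 or either WT 24 h library (adjusted p = 0.0579 to 0.109). Dnajc9 was lower in Zn4 cells by -0.42 ± 0.12 (adjusted p = 0.0369), with 60.1 and 79.9 RPKM in Zn4 cells against 90.3 and 95.6 RPKM in WT cells. Without Zn4 24 h replicate 1 it was -0.22 (adjusted p = 0.195), and the call was also lost without either WT 24 h library (adjusted p = 0.121 and 0.199) or any one 12 h library (adjusted p = 0.0547 to 0.0575). Dnaja4 was higher by 0.45 ± 0.13 (adjusted p = 0.044), with 2.95 and 2.6 RPKM in Zn4 cells against 1.81 and 1.71 RPKM in WT cells, and its call was lost without any one library other than the WT 0 h ones (adjusted p = 0.0507 to 0.222).

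**Figure D5:**
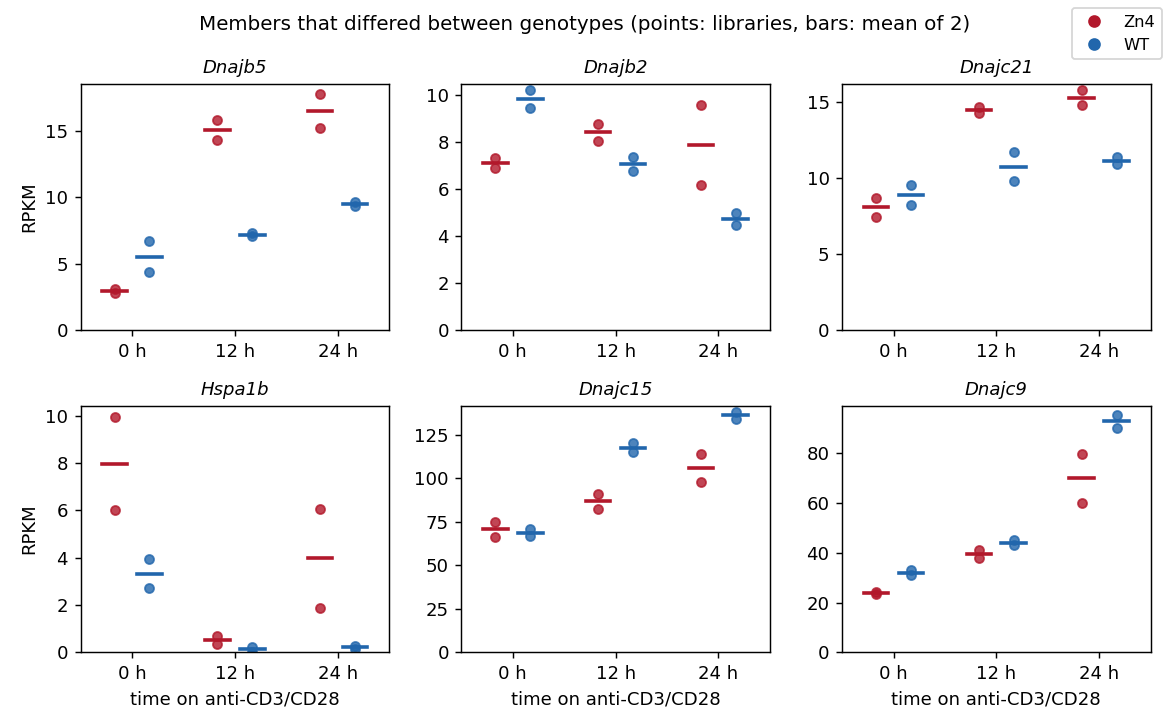
RPKM of Dnajb5, Dnajb2, Dnajc21, Hspa1b, Dnajc15 and Dnajc9 in each library at 0, 12 and 24 h, with Zn4 left of WT; points are libraries, bars are the mean of 2, and each vertical axis starts at 0. Dnajb5 is lower in Zn4 than in WT cells at 0 h and higher at 12 h and 24 h, and Hspa1b at 24 h has 6.08 and 1.86 RPKM in Zn4 cells against 0.147 and 0.277 RPKM in WT cells.

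The partners of these chaperones, taken from lists of known cofactors, mostly rose at 12 h. Of all genes tested 43.5% rose and 29.6% fell in Zn4 cells, and 43.1% rose and 27% fell in WT cells. Among 22 HSP90 co-chaperones 16 rose and 2 fell in Zn4 cells and 15 rose and 2 fell in WT cells. Fkbp4, an immunophilin, rose by 2.14 ± 0.21 and 2.01 ± 0.21, Stip1, which links HSP70 to HSP90, by 2.10 ± 0.18 and 1.86 ± 0.18, and Nudc by 1.98 ± 0.14 and 1.71 ± 0.14, in Zn4 and WT cells (adjusted p between 9.43e-07 and 1.87e-05). Among 17 prefoldin and TRiC cofactors 13 rose in Zn4 cells and 12 in WT cells, with none lower. Among 15 HSP70 exchange and helper factors 11 rose in each genotype, while 2 fell in Zn4 cells and 1 in WT cells. Among 14 mitochondrial folding and protease genes 12 rose in each genotype, while 1 fell in Zn4 cells and none in WT cells.

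Of the 25 genes on the ER folding list 15 rose and 7 fell at 12 h in Zn4 cells and 13 rose and 7 fell in WT cells, nearer to the shares of all genes. At 12 h 5 of its genes were called higher in Zn4 than in WT cells and none lower, where 4.85% of all genes were higher and 8.28% lower, beside the 3 ER members, and without replicate 1 of both 12 h groups none was called. Hsf1, the heat shock factor itself, rose at 12 h by 0.42 ± 0.06 in Zn4 cells (adjusted p = 0.00019) and 0.41 ± 0.06 in WT cells (adjusted p = 0.000248). After median-ratio scaling neither was called (0.14 and 0.10). Bag3, a heat-inducible exchange factor of HSP70, was higher in resting Zn4 cells by 1.92 ± 0.17 (adjusted p = 0.000168), with 13.3 and 14.8 RPKM against 3.32 and 2.67 RPKM in WT cells, and this call held under all 23 alternatives.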

How the data were processed

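The deposited table holds RPKM values for 12 libraries, made by the authors from single-end TruSeq stranded mRNA reads (Illumina HiSeq, per the labels' protocols) with TopHat2 2.0.12, HTSeq 0.6.1 and mm10/GRCm38, per the submitters' processing notes; the annotation and any filter are not given in the sources used here. Depths of 24263907 to 33389808 reads and gene lengths were worked out as those that gave whole reads, within 0.02 reads or more at high counts. The length equalled the GENCODE M21 exon length for 7159 genes, 35 of them members. For the others the shortest length that gave whole reads was taken. Together these covered 12884 of 12885 symbols and gave the reads quoted. Genes that reached 1 RPKM in 2 or more libraries were tested with limma 3.58.1 (R 4.3.3; lmFit and eBayes with trend) on log2(RPKM + 1), with 6 group means over all 12 libraries (6 residual degrees of freedom) and Benjamini-Hochberg adjustment within each of 11 comparisons, and a call was an adjusted p under 0.05. The fit was tested on simulated data. The members and lists were chosen with earlier results of these data known. Full statistics were given to the 4 called members with the largest rise and fall in each comparison and to the most abundant member of each class; other members are named from the rule. The alternatives were another pseudocount, other filters, scalings and sample sets, leaving out each library, a replicate block, the Y-linked covariate, and, chosen after seeing the data, limma-voom on recovered reads, a block at each time, and leaving out replicate 1 of both 12 h groups. Motifs were searched and tables handled with Python 3.11.15 and pandas 2.3.3.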

Additional observations from a re-analysis of the deposited data

Results flagged for a closer look

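In 6 cases the response of a member to stimulation differed between Zn4 and WT cells by the test of the difference itself, on the log2(RPKM + 1) scale. Dnajb5 responded more in Zn4 cells at 12 h (1.68 ± 0.22, adjusted p = 0.00383) and at 24 h (1.44 ± 0.22, adjusted p = 0.00595). Dnajb4 fell further in Zn4 cells at 12 h (-0.72 ± 0.17, adjusted p = 0.0457). Leaving out any one of 9 libraries took this call away (adjusted p = 0.0814 to 0.165), the exceptions being WT 0 h replicate 1 and the 2 Zn4 24 h libraries. Hspa8 rose less in Zn4 cells at 24 h (-0.61 ± 0.15, adjusted p = 0.0403), with 114 and 107 RPKM in Zn4 cells and 127 and 125 RPKM in WT cells at 24 h, against 72.1 and 81.9 RPKM in Zn4 cells and 64.1 and 51.2 RPKM in WT cells at 0 h. That call was lost without any one library other than Zn4 0 h replicate 1 and WT 0 h replicate 1 (adjusted p = 0.0607 to 0.141). Dnajc14, a J protein of the ER membrane, rose at 24 h in Zn4 cells, with 18.2 and 16.2 RPKM against 10.1 and 10.5 RPKM at 0 h, where WT cells had 13.8 and 14.1 RPKM against 12.8 and 13.7 RPKM. Its responses differed by 0.61 ± 0.12 (adjusted p = 0.0178), a call lost without Zn4 24 h replicate 1 (0.53, adjusted p = 0.0555), WT 24 h replicate 1 (adjusted p = 0.0879) or WT 24 h replicate 2 (adjusted p = 0.0781). Dnajb2 fell in WT cells and not in Zn4 cells at 24 h, a difference of 1.02 ± 0.23 (adjusted p = 0.0263). All genes showed such differences in 5.12% of cases at 12 h and 8.24% at 24 h, and the members in 2 and 4 of 65.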

How the results depend on the processing

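Of 94 changes named by rule, 56 kept their call under every alternative and 38 lost it at least once; of 2155 values 1920 kept direction and call, 232 only direction, and 3 turned, all under quantile normalization: Dnaja2 (-0.09) and Dnajc15 (-0.12) in Zn4 cells at 12 h against 0 h, and Hsp90ab1 (0.04) in Zn4 cells at 24 h against 12 h. Counts of called members against 0 h stayed within 1.5 times. For Zn4 cells at 24 h against 12 h (23 called) the count was 1 with the Y-linked covariate, 5 without replicate 1 of both 12 h groups and 8 to 30 leaving out 1 library. For WT cells (6 called) it was 24 with median-ratio scaling, 13 with quantile normalization, 31 with only that comparison's libraries, 2 with the covariate, 10 with a replicate block at each time, 1 without replicate 1 of both 12 h groups and 2 to 15 leaving out 1 library. For Zn4 against WT at 0 h (2 called) it was 5 with median-ratio scaling, 0 with only its libraries, 1 with the covariate, 5 with limma-voom, 6 with the block at each time, 0 without replicate 1 of both 12 h groups and 0 to 7 leaving out 1. At 12 h (7 called) it was 2 with the covariate, 0 without both replicates 1 and 1 to 8 leaving out 1; at 24 h (9 called) it was 4 with only its libraries, 5 with the covariate, 2 without both replicates 1 and 0 to 11 leaving out 1. For the difference of responses at 12 h (2 called) it was 1 with a pseudocount of 0.1 RPKM, 1 with only its libraries, 1 with the covariate, 5 with the block at each time, 0 without both replicates 1 and 1 to 3 leaving out 1; at 24 h (4 called) it was 1 with only its libraries, 1 without both replicates 1 and 1 to 6 leaving out 1. The members with a heat shock element were 28.3% for 2 units and 7.5% for 3. The causes were not tested. Replicate numbers were not taken as pairs, since of 15 pairs of groups 3 had correlations over 0.1 (-0.12 to 0.61), although Zn4 and WT libraries had 0.61 at 0 h, 0.19 at 12 h and 0.04 at 24 h. A replicate block at each time gave 6, 9 and 11 members between genotypes at the 3 times, and 1343, 2644 and 3794 of all genes against 728, 1671 and 2464 without it. The replicate block over all times gave 58, 53, 52, 51, 19, 6, 3, 6, 9, 3 and 5 calls in the 11 comparisons, against 59, 53, 53, 49, 23, 6, 2, 7, 9, 2 and 4. Depth limits Hspa1a and Hspa1b in WT cells after stimulation, where libraries held 0 to 22 reads of them.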
